A study of Mus musculus with 8 samples.

Results

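AP-1 and immediate early genes were followed in RNA of sorted tumor endothelial cells (TECs). The group consisted of the 10 genes Fos, Fosb, Jun, Junb, Jund, Egr1, Atf3, Ier2, Dusp1 and Nr4a1, found by their symbols among the 33641 symbols of the expression files. All 10 passed the filter on low values (at least 1 TPM in at least 4 libraries) and so belonged to the 14964 genes tested. TPM, a transcript abundance measure, corrects a gene's reads for its length and scales every library to the same total, so that levels can be set side by side between genes.

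AP-1 is a dimeric transcription factor that binds DNA through basic leucine zippers. Jun proteins pair with each other, with Fos proteins or with members of the ATF family, whereas Fos proteins need a Jun partner. Fos, Fosb, Jun, Junb, Egr1, Ier2, Atf3, Dusp1 and Nr4a1 are immediate early genes: their transcription starts within minutes of a stimulus without new protein synthesis, through serum response factor, CREB and the MAP kinases, and their mRNAs are short-lived. In endothelium they answer growth factors, cytokines and shear stress, and they are also known to be induced while tissue is dissociated and sorted.

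RNA came from CD45-CD31+ cells sorted by flow cytometry from micro-dissected orthotopic lung tumors 21 days after Lewis lung carcinoma (LLC) cells, a mouse lung cancer line, were placed in the left lung. The 4 endFoxf1+/- libraries (H1 to H4) came from mice carrying Pdgfb-iCreER and 1 floxed allele of Foxf1, a forkhead transcription factor of lung endothelium. Tamoxifen, 3 mg by oral gavage at 6 to 8 weeks of age, deletes exon 1 of that allele in cells in which the Pdgfb promoter drives Cre, mainly endothelium, so the second allele stays intact. The 4 control libraries (C1 to C4) carry only the word control in the labels. The methods describe controls as tamoxifen-treated littermates with the floxed allele or the Cre alone and also mention wild type mice, and which control gave which library was not stated. The study calls its replicates biological but gives fewer per group for a plot of this RNA-seq than were deposited. Whether a library was one mouse or a pool was not stated, so the p-values measure the spread between these libraries.

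Libraries H3 and H4 stood apart. Foxf1 was at 213 to 331 TPM in the control libraries and at 177, 203, 14.04 and 105 TPM in H1 to H4, below every control in each. The endothelial marker Pecam1 (CD31), used for the sort, was at 1061 to 1505 TPM in the control libraries and at 1363, 1398, 77.5 and 914 TPM in H1 to H4. The 20 endothelial markers had a geometric mean of 391 to 501 TPM in the controls, 477 and 488 in H1 and H2, 25.7 in H3 and 252 in H4, with none at 0 in any library. The 12 myeloid markers had a geometric mean of 12.9 to 30.7 TPM in the controls, 33.7, 39.7 and 34.2 in H1, H2 and H4, and 234 in H3, where Ptprc (CD45) reached 91.2 TPM against at most 16.5 elsewhere. Their summed level was 2275 to 6330 TPM in the controls and 2836 to 11155.6 TPM in the endFoxf1+/- libraries, and no myeloid marker was at 0 in any library. In H4 the transcript Gm20594 took 21.8% of all TPM, against 5.11% to 11.3% in the other 7 libraries, which lowers the share left for every other gene of that library. Lymphocyte markers (1.06 to 7.31 TPM) and fibroblast and pericyte markers (6.39 to 18.4 TPM) had their highest geometric means in H3, and epithelial markers (19.1 to 157 TPM) in C3 and H4. The 8 erythroid and platelet markers had a geometric mean of 50.75 to 115 TPM in the controls and of 40.85, 47.4, 18.0 and 40.0 TPM in H1 to H4, below every control in each. The only marker of these lists at 0 was 1 lymphocyte marker in H4. Because H3 and H4 stood apart, the main results are also given without them. In bulk RNA, fewer cells of a type and less RNA per cell cannot be told apart.

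The 10 genes spanned a wide range of levels in control TECs, with Jun at the top and Jund at the bottom. Jun averaged 549 ± 23.7 TPM (SD, n = 4), Dusp1 388.5 ± 62.05 and Egr1 189 ± 51.9. These 3 were ordered alike in all 4 control libraries and stood above every other member there. Ier2 (116 ± 4.07 TPM), Fos (111 ± 32.5) and Junb (104.5 ± 22.2) formed a middle group, in which Ier2 was above Fos in 2 of 4 control libraries and Fos above Junb in 2 of 4, so the order within it was not resolved. Fosb (43.4 ± 13.5 TPM) and Atf3 (40.3 ± 9.54) lay close together, with Fosb higher in 3 of 4. Nr4a1 (23.1 ± 11.3 TPM) and Jund (16.4 ± 1.64) were lowest, and their order also held in only 3 of 4. Relative to their means, Ier2, Jun and Jund varied least between controls. C2 had the highest TPM of 6 members among the controls and C4 the lowest of 7.

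Of the members, 3 lie on chromosome 8 of GRCm38 in the GENCODE annotation: Jund at chr8:70698949-70700616 (plus strand), Ier2 at chr8:84661331-84662852 (minus) and Junb at chr8:84974484-84978718 (minus). Jun (chr4:95049034-95052222, minus), Jund and Ier2 are annotated with 1 exon each, so their transcripts are not spliced, whereas Nr4a1 (chr15:101254269-101274795, plus) has up to 8.

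**Figure D1:**
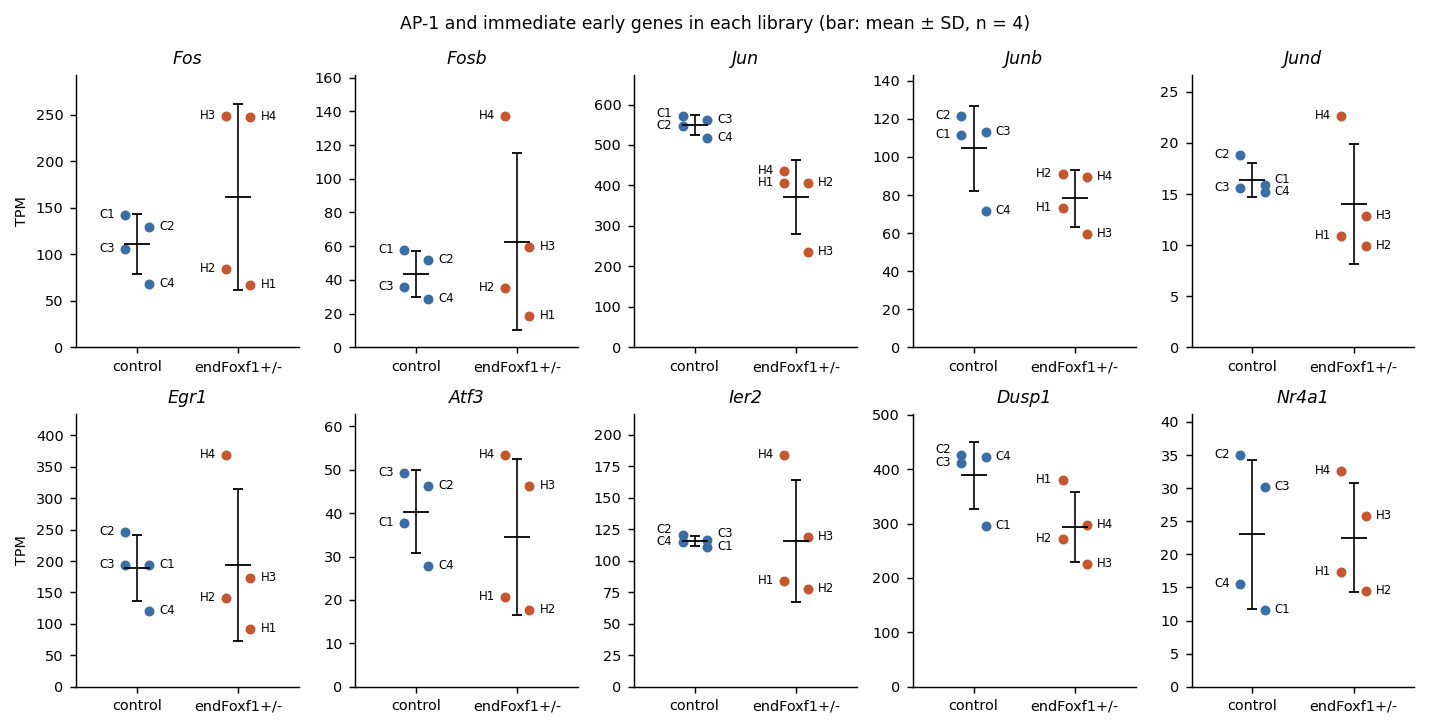
TPM of each member (vertical axes, linear from 0) in the 4 control (blue) and 4 endFoxf1+/- (red) libraries, each point labelled with its library and the bar giving mean ± SD (n = 4). The groups do not overlap for Jun, while for Jund, Atf3 and Ier2 the libraries H1 and H2 lie below and H4 above every control.

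The first comparison asked whether endothelial loss of 1 Foxf1 allele went with another level of these genes. Jun, the main DNA-binding partner within AP-1 and a gene whose protein is activated by JNK, was at 571, 546, 563 and 517.5 TPM in C1 to C4 and at 405, 406.5, 236 and 436 TPM in H1 to H4. Jun was the one member whose groups did not overlap: the highest endFoxf1+/- library, H4, was below the lowest control, C4. The means were 549 ± 23.7 TPM in the controls and 371 ± 90.9 TPM in the endFoxf1+/- libraries (SD, n = 4 each), a fold of 0.658 on the log2(TPM + 1) scale. The log2 difference was -0.60 with a standard error of 0.26 and a 95% interval from -1.19 to -0.02 (limma). Its Benjamini-Hochberg adjusted p over all genes was 0.79 (limma), and the exact permutation test over 70 assignments gave p = 0.0286, the smallest that 4 against 4 libraries allow. Of all genes tested, 2.31% had every endFoxf1+/- library below every control. Jun was also the only member with an unadjusted limma p under 0.05, a mark that 5.59% of all genes passed in either direction. That mark was lost without any single control library (unadjusted limma p from 0.0789 to 0.0938). It was also lost without H1, at 0.0569, and without H2, at 0.0579, and under median-ratio scaling, at 0.0795. Relative to the endothelial markers of each library the difference of Jun turned to 0.61 on the log2 scale, with an unadjusted limma p of 0.447. That scaling shifts the log2 difference of every gene by the same amount. It moved the median of all genes to 1.04 and left 2.51% of all genes lower. The place of Jun relative to the median gene could therefore not change under it.

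Junb and Jund encode the other Jun proteins, of which JunB is a weaker activator and JunD is usually expressed without a stimulus. Junb was at 112, 121, 113 and 71.8 TPM in C1 to C4 and at 73.4, 91.2, 59.5 and 89.5 TPM in H1 to H4. All endFoxf1+/- libraries lay below C1, C2 and C3, but C4 fell among them. The log2 difference was -0.40 with a 95% interval from -0.96 to 0.16 (exact permutation p = 0.171, n = 4 each). Jund was at 15.9, 18.8, 15.6 and 15.2 TPM in the controls and at 10.85, 9.88, 12.8 and 22.6 TPM in H1 to H4. The first 3 endFoxf1+/- libraries were below every control and H4 was above every control. The resulting log2 difference was -0.27, with an interval from -0.91 to 0.36 (exact permutation p = 0.314, n = 4 each).

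Fos and Fosb, whose proteins bring a strong activation domain to the dimer, spread widely among the endFoxf1+/- libraries. Fos was at 142, 129, 105.5 and 68.05 TPM in C1 to C4 and at 66.7, 84.0, 249 and 248 TPM in H1 to H4. H1 was just below the lowest control and H2 within the control range, while H3 and H4 were each above every control. Fosb was at 57.6, 51.7, 35.95 and 28.5 TPM in the controls and at 18.6, 35.4, 59.8 and 137 TPM in H1 to H4. It had the largest ratio of the highest to the lowest library among the members, 7.36, against 1.88 for Dusp1, the smallest. The log2 differences of 0.35 for Fos (95% interval -0.72 to 1.41) and 0.21 for Fosb (-1.0 to 1.41) had wide intervals on both sides of 0, and both turned negative without H3 and H4.

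Promoter sequence is shown for 5 members whose levels carry these patterns: Fos and Fosb, which followed each other most closely, Jun, which separated the groups, Junb, which followed Jun, and Dusp1, which followed Fos least. Each run is the 200 bases just upstream of the RefSeq start on GRCm38.p6, read 5′ to 3′ on the gene's strand: Fos at chr12:85473690-85473889 (plus strand), Fosb at chr7:19310046-19310245 (minus), Jun at chr4:95052223-95052422 (minus), Junb at chr8:84978749-84978948 (minus) and Dusp1 at chr17:26508473-26508672 (minus). Capitals mark TGACG, the core of the cAMP response element bound by CREB and ATF proteins, its full form TGACGTCA in Dusp1, the AP-1-like TGACATCA in Jun, and the TATA box TATAAA in Fos.
Fos: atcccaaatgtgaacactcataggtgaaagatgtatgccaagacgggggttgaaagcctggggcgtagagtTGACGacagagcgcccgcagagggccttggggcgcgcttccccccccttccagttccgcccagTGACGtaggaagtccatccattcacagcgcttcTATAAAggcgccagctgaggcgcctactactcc
Fosb: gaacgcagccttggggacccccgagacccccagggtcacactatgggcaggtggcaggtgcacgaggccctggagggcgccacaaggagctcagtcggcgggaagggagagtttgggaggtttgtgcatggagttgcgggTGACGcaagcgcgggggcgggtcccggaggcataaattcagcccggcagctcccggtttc
Jun: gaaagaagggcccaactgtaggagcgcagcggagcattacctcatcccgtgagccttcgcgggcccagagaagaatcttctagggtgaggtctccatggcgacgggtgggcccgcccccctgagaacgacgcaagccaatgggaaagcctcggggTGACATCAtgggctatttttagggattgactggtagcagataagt
Junb: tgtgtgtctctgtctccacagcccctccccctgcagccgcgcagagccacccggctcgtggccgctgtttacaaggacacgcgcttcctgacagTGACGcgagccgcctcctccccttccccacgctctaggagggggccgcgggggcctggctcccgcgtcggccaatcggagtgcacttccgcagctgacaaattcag
Dusp1: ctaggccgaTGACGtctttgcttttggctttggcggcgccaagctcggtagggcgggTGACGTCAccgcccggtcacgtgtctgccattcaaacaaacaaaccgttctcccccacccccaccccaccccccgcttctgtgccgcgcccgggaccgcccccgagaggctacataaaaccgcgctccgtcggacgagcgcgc

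Windows of this length were used for 8 of the 10 members, all but Egr1 and Ier2. With both strands searched, TGACG lay in 6 of the 8 (Fos, Fosb, Junb, Atf3, Dusp1 and Nr4a1), against 15.66% of 32851 RefSeq windows of the same length. Every TGACGTCA also counts as a TGACG. TGACGTCA itself lay in 1 of the 8, Dusp1, against 1.47% of windows, and TGACATCA in 1, Jun, against 2.66%. TATAAA was found in 1, Fos, against 6.274%. The consensus AP-1 site TGANTCA was in none of the 8 and in 5.479% of windows, and the CArG box of serum response factor was in none of the 8 and in 1.184%. These are matches of letters in a short window and do not show binding.

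Because TPM is corrected for length, the Fos and Jun levels could be set against each other within each library. Fos TPM divided by Jun TPM was 0.249, 0.236, 0.188 and 0.132 in C1 to C4 and 0.165, 0.207, 1.05 and 0.569 in H1 to H4. H1 and H2 were inside the control range, whereas H3 and H4 were above every control. Fos and Fosb together made up 13.8% to 22.2% of the summed TPM of Fos, Fosb, Jun, Junb and Jund in the controls, 14.9% and 19.0% in H1 and H2, and 50% and 41.3% in H3 and H4. H3 and H4 were also the libraries with low endothelial markers, and H3 the one with high myeloid markers. The part of these cell types in the ratio was not tested. The ratio of Fosb to Fos varied less, from 0.240 to 0.553 across all 8 libraries.

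**Figure D2:**
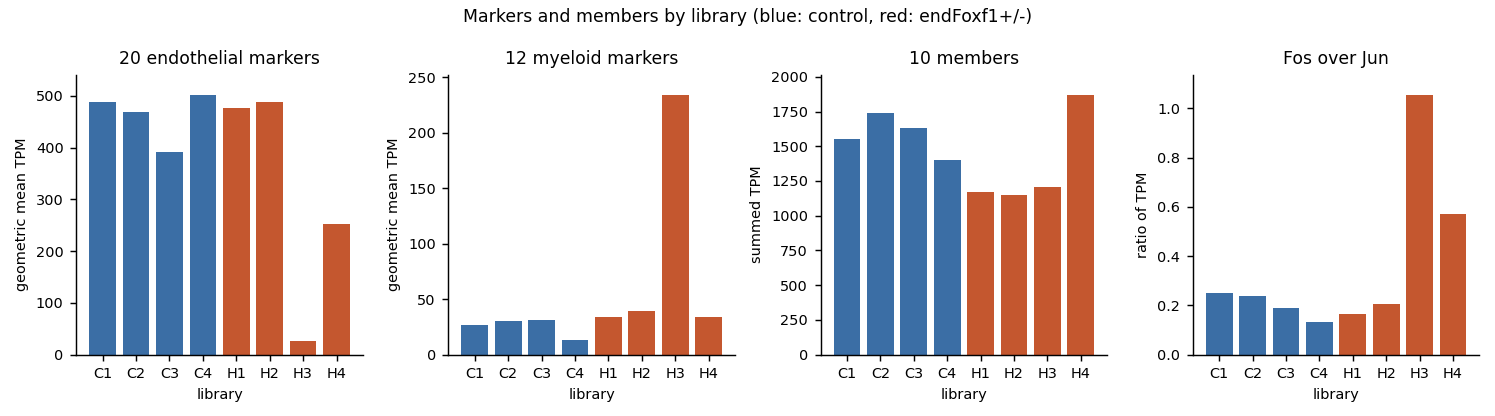
Bars give, for each library (blue control, red endFoxf1+/-), the geometric mean TPM of 20 endothelial and of 12 myeloid markers, the summed TPM of the 10 members and the ratio of Fos to Jun TPM, all on linear axes from 0. H3 and H4 combine low endothelial markers with Fos to Jun ratios of 1.05 and 0.569, while H1 and H2 sit beside the controls in the endothelial markers and in the ratio.

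Egr1, a zinc finger activator induced by the same stimuli as Fos, was at 194, 247, 194 and 120.5 TPM in C1 to C4 and at 92.2, 142, 173.5 and 368 TPM in H1 to H4. H1 was below and H4 above every control, and the means of 189 ± 51.9 and 194 ± 121 TPM (SD, n = 4 each) differed by far less than the spread. Nr4a1, an orphan nuclear receptor (Nur77), was at 11.6, 34.9, 30.2 and 15.5 TPM in the controls and at 17.3, 14.4, 25.8 and 32.6 TPM in H1 to H4, with all endFoxf1+/- libraries inside the control range. Its log2 difference was 0.03 with an interval from -0.87 to 0.93.

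Atf3, a stress-induced leucine zipper protein that often represses, was at 37.8, 46.2, 49.2 and 27.9 TPM in C1 to C4 and at 20.7, 17.6, 46.3 and 53.3 TPM in H1 to H4. H1 and H2 were below every control and H4 was above every control. Ier2, a nuclear protein of the immediate early response, was tightly held in the controls at 111, 121, 116 and 115 TPM. In H1 to H4 it was at 83.7, 77.85, 118.5 and 183.5 TPM, again with H1 and H2 below and H4 above every control, and the group means were nearly equal at 115.6 ± 4.07 and 115.9 ± 48.5 TPM (SD, n = 4 each).

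Dusp1, the phosphatase that switches MAP kinases off, was at 296, 425, 411 and 422 TPM in C1 to C4 and at 379.8, 271, 226 and 297 TPM in H1 to H4. No endFoxf1+/- library reached the 3 highest controls, and C1 lay among them. Its log2 difference was -0.41 with a 95% interval from -0.98 to 0.15 (exact permutation p = 0.0857, n = 4 each).

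Across the 8 libraries, 7 of the 10 members had a negative log2 difference, close to the 68.0% of all genes tested that did. Their median was -0.19, beside -0.17 over all genes. These directions depended on the scaling: 5 of the 10 were negative after quantile normalization or median-ratio scaling, which moved the median of all genes to -0.05 and -0.01, and 0 of the 10 were when each library was set relative to its endothelial markers, where the median of all genes was 1.04. With Benjamini-Hochberg adjustment over all genes, limma put none of the 10 past 0.05 (smallest adjusted p 0.790), and 0% of all genes passed (smallest adjusted p 0.305). The summed TPM of the members was 1549, 1740, 1633 and 1401 in C1 to C4 and 1168, 1150, 1207 and 1867 in H1 to H4. H1, H2 and H3 were below every control and H4 above every control.

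Without H3 and H4, all 10 members were lower in the endFoxf1+/- libraries, while 29.3% of all genes were. The median of the members was -0.51 on the log2(TPM + 1) scale and that of all genes 0.14. All 10 were also lower after quantile normalization, after median-ratio scaling and relative to the endothelial markers of these 6 libraries, with medians from -0.67 to -0.58. Median-ratio scaling and the endothelial markers each apply a single factor per library, and moved the median of all genes down to -0.01 and 0.07. Members that were already lower could therefore not turn higher under them. Atf3 had the largest difference, -1.01 (standard error 0.23, 95% interval -1.54 to -0.47), a fold of 0.498. Jund differed by -0.61 (interval -0.97 to -0.25), Ier2 by -0.51 (-0.76 to -0.27) and Jun by -0.44 (-0.68 to -0.19). Egr1 differed by -0.67, with an interval from -1.34 to -0.01 that nearly reached 0. These 5 had an unadjusted limma p under 0.05 in the lower direction (5 to 7 under the other scalings), against 2.25% of all genes. Of the 10 members, 4 (Jun, Jund, Atf3 and Ier2) had H1 and H2 both below every control, against 4.19% of all genes. None of the members passed 0.05 after Benjamini-Hochberg adjustment over all genes (limma, smallest adjusted p 0.224), and 0.02% of all genes did. With 4 control libraries against 2, the exact permutation test over assignments cannot go below p = 0.0667, which these 4 members reached.

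Fosb at -0.68, Fos at -0.51, Nr4a1 at -0.39, Junb at -0.32 and Dusp1 at -0.26 were also lower without H3 and H4, each with a 95% interval that included 0. When all 8 libraries were kept but weighted by how well each fitted (limma array weights, 0.0643 for H3 and 0.178 for H4 against 1.17 to 3.85 for the other 6), all 10 members were negative, against 30.7% of all genes. These weights come from the same data and nearly leave out H3 and H4, so this fit is no separate check. Of the 10, 6 were lower at an unadjusted p under 0.05, against 3.95% of all genes. The smallest Benjamini-Hochberg adjusted p was then 0.0795. Leaving out H3 alone left 8 members negative (48.3% of all genes), and leaving out H4 alone left 9 (65.4% of all genes). Markers of other cells moved with this result. H1 and H2 were both above every control for 7 of the 12 myeloid and 3 of the 10 lymphocyte markers, against 20.2% of all genes, and both below every control for 4 of the 8 erythroid and platelet markers, against 4.19% of all genes. The 4 below were the platelet genes Pf4, Ppbp, Itga2b and Gp9, and no erythroid gene was among them. The erythroid gene Alas2 was above every control in H1 and H2, at 4.70 and 6.64 TPM against at most 4.36 TPM. Of the 11 fibroblast and pericyte markers, 3 were above every control in both and 2 below. The matrix gene Lum was at 21.4 and 15.3 TPM in H1 and H2 against at most 7.10 TPM in the controls, and the pericyte gene Rgs5 was at 3.71 and 3.73 TPM against at least 10.7 TPM. Of the 20 endothelial markers 4 were above and 1 below, and of the 9 epithelial markers none was above and 1 was below. The geometric means in H1 and H2 were 33.7 and 39.7 TPM for the myeloid markers (at most 30.7 in the controls) and 2.19 and 2.62 TPM for the lymphocyte markers (at most 1.97). The part of those cells in the members' levels was not tested.

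**Figure D3:**
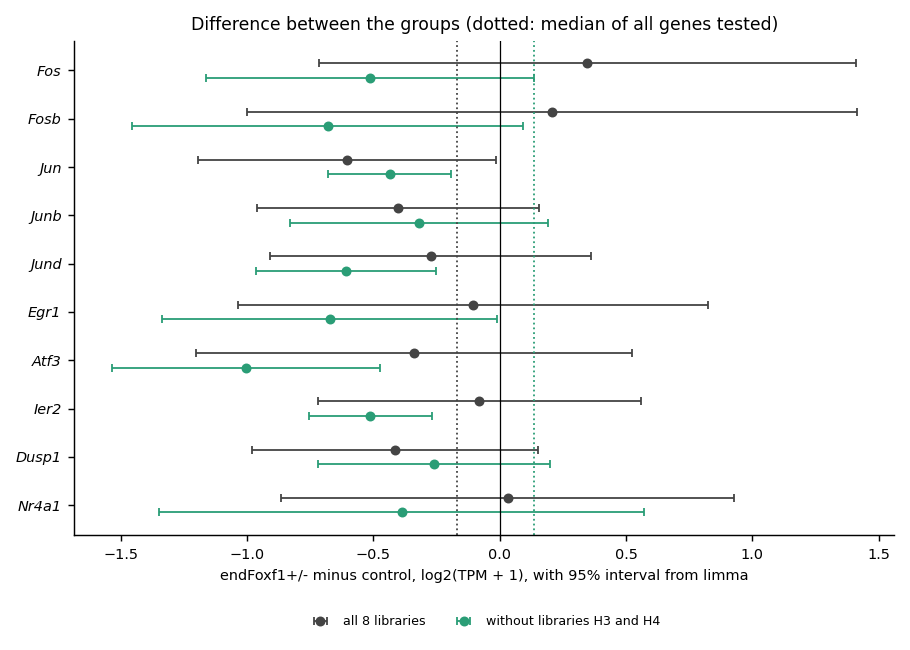
Difference between endFoxf1+/- and control on the log2(TPM + 1) scale (horizontal axis) with 95% limma intervals, for all 8 libraries (grey) and without H3 and H4 (green), beside the median of all genes tested (dotted, -0.17 and 0.14). With all libraries only the interval of Jun stays below 0, and without H3 and H4 those of Jun, Jund, Egr1, Atf3 and Ier2 do.

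The second question was whether the members varied together from library to library. Over the 8 libraries the 45 pairs of members had a median Spearman rho of 0.48, with 41 pairs positive, beside a median of 0.19 and 65.0% positive over the 111953166 pairs of all genes tested. An exact permutation p under 0.05 (rho of at least 0.738) was reached by 12 of the 45 pairs, or 26.7%, all positive, against 10.1% of all pairs in that direction. After Benjamini-Hochberg adjustment over all pairs of genes the smallest p of a member pair was 0.131. All genes of a library share its cell make-up and its scaling to the same total, and pairs that share a member are not independent. As a description, the rho of the members with the endothelial marker level ran from -0.81 (Atf3) to 0.26 (Jun) over the 8 libraries, with 7 of 10 negative, and was negative for all 10 without H3 and H4. Their rho with the share of Gm20594 was positive for all 10, from 0.12 (Jun) to 0.81 (Nr4a1), and also without H3 and H4. With the epithelial marker level it was positive for 9 of 10, up to 0.60 (Atf3), and for all 10 without H3 and H4, up to 0.66 (Atf3). With the myeloid marker level it was negative for 5 of 10, from -0.76 (Jun) to 0.36 (Fos), and for 8 of 10 without H3 and H4. The part of these measures in the covariation was not tested.

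Fos and Fosb were the closest pair. Their rho was 0.98 (exact permutation p = 3.97e-04, n = 8) and their Pearson r on the log2(TPM + 1) scale 0.90 (exact permutation p = 4.96e-05), and r was 0.93 without the 2 libraries farthest from the median of Fos. When H3 and H4 were left out, the 2 genes ranked the 6 libraries identically (rho 1, exact permutation p = 0.00278, n = 6).

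Egr1 and Atf3 also passed the mark of 0.738 with Fosb, at a rho of 0.83 and 0.76, and Egr1 with Fos at 0.74. Ier2 and Nr4a1 had a rho of 0.83. All 6 pairs among Jund, Egr1, Atf3 and Ier2 passed as well. The rho of Jund and Egr1 was 0.88 and that of Atf3 and Ier2 was also 0.88 (exact permutation p = 0.00724 each, n = 8). Their Pearson r was 0.84 (exact permutation p = 0.0107) and 0.85 (exact permutation p = 6.94e-04), and became 0.81 and 0.54 without the 2 libraries farthest from the median, so the latter rested in part on those libraries. Jund and Ier2 had a rho of 0.79 (exact permutation p = 0.0279, n = 8) and an r of 0.92 (exact permutation p = 0.00181), which was 0.77 without the 2 farthest. With H3 and H4 left out, the rho of these 3 pairs was 0.83 for Jund and Egr1, 0.89 for Atf3 and Ier2 and 0.83 for Jund and Ier2.

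Jun behaved differently from Fos over the 8 libraries. Fos and Jun had a rho of 0.02 (exact permutation p = 0.977, n = 8) and an r of -0.42 (exact permutation p = 0.310). Without H3 and H4 their rho was 0.89 (exact permutation p = 0.0333, n = 6) with an r of 0.71 (exact permutation p = 0.157). Jun instead went with Junb over the 8 libraries, at a rho of 0.74 (exact permutation p = 0.0458, n = 8) and an r of 0.80 (exact permutation p = 0.00992), which was 0.57 without the 2 farthest libraries. Leaving out H3 and H4, the rho of Jun and Junb was 0.60 (exact permutation p = 0.242, n = 6). Dusp1 reached a rho of 0.738 with no other member over the 8 libraries. Its rho with Fos was -0.45 (exact permutation p = 0.268, n = 8) and -0.38 with Fosb.

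Without H3 and H4 the median rho of the 45 pairs was 0.66, with 42 positive, against 0.14 and 59.9% positive over all pairs of genes. The exact permutation p was under 0.05 (rho of at least 0.886) for 8 pairs, or 17.8%, against 3.71% of all pairs, and the smallest value adjusted over all pairs was 0.586. Of these 6 libraries H1 and H2 are endFoxf1+/- and the other 4 control, so a difference between the groups adds to the correlation.

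**Figure D4:**
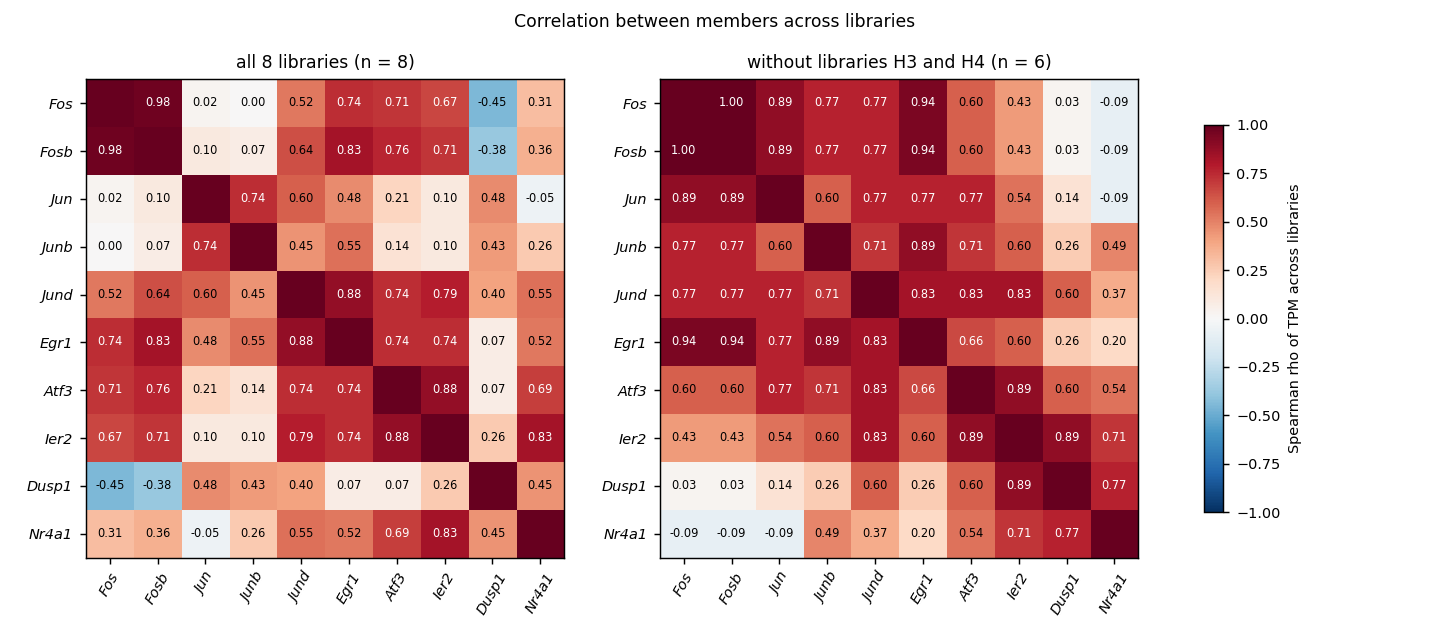
Spearman rho of TPM for every pair of members across all 8 libraries (left) and across the 6 libraries without H3 and H4 (right), from -1 (blue) to 1 (red). Fos and Jun change from 0.02 to 0.89 between the panels, while Fos and Fosb stay at 0.98 and 1.

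The mean standardized level of the members, the average of their log2 values after each was centred and scaled over the 8 libraries, was 0.12, 0.71, 0.42 and -0.32 in C1 to C4 and -0.86, -0.81, -0.27 and 0.997 in H1 to H4. H4 was thus highest and H1 and H2 lowest. Single members followed it unequally: r with this mean, which includes the member itself, was 0.95 for Jund and 0.92 for Egr1 but 0.38 for Jun and 0.19 for Dusp1. Among the other 14954 genes tested, the 10 that followed it best had r from 0.87 to 0.98 over the 8 libraries. They were Zfp36, Slc25a29, Gpx4, Gm9104, Egr3, Gm8696, Gm12397, Moap1, Spib and Btc, of which 2, Zfp36 and Egr3, are in the list of other immediate early genes described next. Zfp36, which encodes the mRNA-destabilizing protein tristetraprolin, was closest with r = 0.98 and stood at 113, 136, 119.5 and 104 TPM in C1 to C4 and 82.1, 84.5, 109 and 145 TPM in H1 to H4. Egr3, a relative of Egr1, followed with r = 0.90 at a far lower level, 1.20 to 5.32 TPM.

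Other genes of the pathway were read from lists of textbook members. Of 45 other immediate early genes, 44 were tested and 28 had a negative log2 difference, with a median of -0.13. By an unadjusted limma p under 0.05, 3 were lower (Cebpd, Gadd45g and Klf4) and 1 higher (Tnfaip3), that is 9.09% of the list against 5.59% of all genes. Klf4, a shear-responsive zinc finger factor of endothelium, was at 365 to 484 TPM in the controls and at 313, 254, 47.3 and 218 TPM in H1 to H4, so that the groups did not overlap. Cebpd, a leucine zipper factor of the acute phase response, was at 44.5 to 67.3 TPM in the controls and at 42.9, 33.5, 7.22 and 34.4 TPM in H1 to H4, also without overlap (2.31% of all genes in that direction). In both genes H3, the library with low endothelial markers, was lowest by far. Leaving out H3 and H4, 38 of the 44 were lower, against 29.3% of all genes, and the median was -0.27. At an unadjusted p under 0.05 there were 7, all lower, against 2.25% of all genes.

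Of 13 other AP-1 subunits and partners 12 were tested, and 5 were lower, with a median of 0.11. Mafk, a small Maf protein, was at 20.45 to 26.0 TPM in the controls and at 19.0, 16.6, 7.88 and 10.5 TPM in H1 to H4, while Maf was at 1.79 to 2.53 TPM and at 3.28, 3.33, 6.31 and 4.70 TPM. Neither gene's groups overlapped, which held for 2.31% of all genes in the lower and 2.73% in the higher direction. At an unadjusted limma p under 0.05, 2 of the 12 were lower and 1 was higher, or 25%, against 5.59% of all genes in either direction. Batf2 was at 39.5 to 67.2 TPM in the controls and at 43.6, 37.3, 8.97 and 16.4 TPM in H1 to H4. Fosl1, the Fos relative known as Fra-1, was above every control in all 4 endFoxf1+/- libraries, at 13.1, 10.8, 76.8 and 11.8 TPM against 5.69 to 10.1 TPM in the controls. Atf7 and Atf2, the most abundant of the list in controls at 160.4 ± 4.52 and 58.3 ± 3.27 TPM (SD, n = 4), had log2 differences of -0.61 and 0.03. Without H3 and H4, 4 of the 12 were lower, none had an unadjusted limma p under 0.05, and the median was 0.11, close to that of all genes.

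The kinases and factors upstream of the members were near the median of all genes once H3 and H4 were left out. All 31 were tested, 22 were lower over the 8 libraries (median -0.25), and 12 were lower without H3 and H4 (median 0.09, beside 0.14 for all genes). Rps6ka1, a MAP kinase effector that phosphorylates CREB and serum response factor, had the smallest p of the list and was at 53.5 to 69.5 TPM in the controls and at 36.9, 43.6, 9.47 and 17.1 TPM in H1 to H4, without overlap (2.31% of all genes in that direction). Mapk3 (ERK1) was at 351 ± 31.8 TPM in the controls, and its log2 difference of -0.67 became -0.01 without H3 and H4.

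Among the 14 feedback phosphatases and inhibitors, 5 were lower and the median was 0.13. This turned without H3 and H4, where 8 of the 14 were lower and the median was -0.05, against 29.3% and 0.14 for all genes. Dusp2, a phosphatase also known from leukocytes, was at 0.827 to 2.06 TPM in the controls and at 3.46, 3.85, 12.35 and 5.17 TPM in H1 to H4, a log2 difference of 1.40. Dusp8 went the other way, from 17.7 to 26.0 TPM in the controls to 17.2, 10.6, 0.973 and 11.7 TPM in H1 to H4 (log2 difference -1.41). Neither gene's groups overlapped (2.73% of all genes higher and 2.31% lower), and H3 was the extreme library in both. At an unadjusted limma p under 0.05, 1 of the 14 was lower and 1 higher, against 2.77% and 2.82% of all genes. Dusp6, an ERK phosphatase, was at 113 to 201 TPM in the controls and at 128, 130.3, 57.45 and 127 TPM in H1 to H4.

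Of 20 genes described as AP-1 targets 16 were tested, 8 lower and 8 higher, with a median of 0.03. At an unadjusted limma p under 0.05, 4 were higher, against 2.82% of all genes, and none lower. With H3 and H4 left out, 3 were higher and 1 lower, against 9.87% and 2.25% of all genes. Spp1 (osteopontin) was at 61.7 to 107.5 TPM in the controls and at 203, 151, 1414 and 136.5 TPM in H1 to H4. Mmp14, a membrane-bound matrix protease, was at 14.7 to 19.2 TPM and at 30.7, 28.3, 84.1 and 42.1 TPM. Both were above every control in all 4 endFoxf1+/- libraries, as were 2.73% of all genes, and opposite in direction to Jun. Icam1, a leukocyte adhesion molecule of endothelium, went the same way as Jun, at 203 to 246 TPM in the controls and at 183, 144, 19.55 and 194 TPM in H1 to H4, without overlap (2.31% of all genes in that direction; exact permutation p = 0.0286, n = 4 each). The other 2 higher genes were Ccl2 and Timp1, at 8.40 ± 3.58 and 11.05 ± 2.50 TPM in the controls and at 54.6 ± 74.4 and 24.6 ± 15.8 TPM in the endFoxf1+/- libraries (SD, n = 4 each), where H3 was again highest. Spp1, Ccl2 and Timp1 are also expressed by myeloid or stromal cells. The geometric mean of the myeloid markers was above every control in both H1 and H2. That of the fibroblast and pericyte markers was above every control in H1 but within the control range in H2, and single markers of that list went both ways. Of the myeloid markers, Fcgr3 was at 20.85 and 25.75 TPM in H1 and H2 against at most 10.5 TPM in the controls, and Csf1r was at 6.91 and 7.80 TPM against at most 3.99 TPM. Of the 11 fibroblast and pericyte markers, 3 were above every control in H1 and H2 and 2 below. Dcn was at 47.25 and 36.6 TPM against at most 22.7 TPM, beside the values of Lum given above. Postn went the other way, at 24.27 and 15.48 TPM against at least 24.7 TPM, as did Rgs5 with the values given above. The part of those cells in these levels was not tested.

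Heat shock genes, often induced together with immediate early genes by cell stress, varied between libraries within each group. Of 15 tested, 10 were lower (median -0.17), and without H3 and H4 12 were lower (median -0.46, against 29.3% of all genes lower), with 4 at an unadjusted limma p under 0.05, all lower, against 2.25% of all genes. Hspa1a was at 140, 59.5, 145 and 27.7 TPM in C1 to C4 and at 20.9, 12.05, 26.7 and 119.6 TPM in H1 to H4, and shares near-identical sequence with Hspa1b, so its level is uncertain. Bag3, a co-chaperone, was at 149, 139.5, 152 and 141 TPM in C1 to C4 and at 104, 106.5, 96.6 and 158 TPM in H1 to H4. As with Jund, Ier2 and Atf3, H1 and H2 were below and H4 above every control. No gene of any of these lists passed 0.05 after Benjamini-Hochberg adjustment (limma, smallest adjusted p 0.790).

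**Figure D5:**
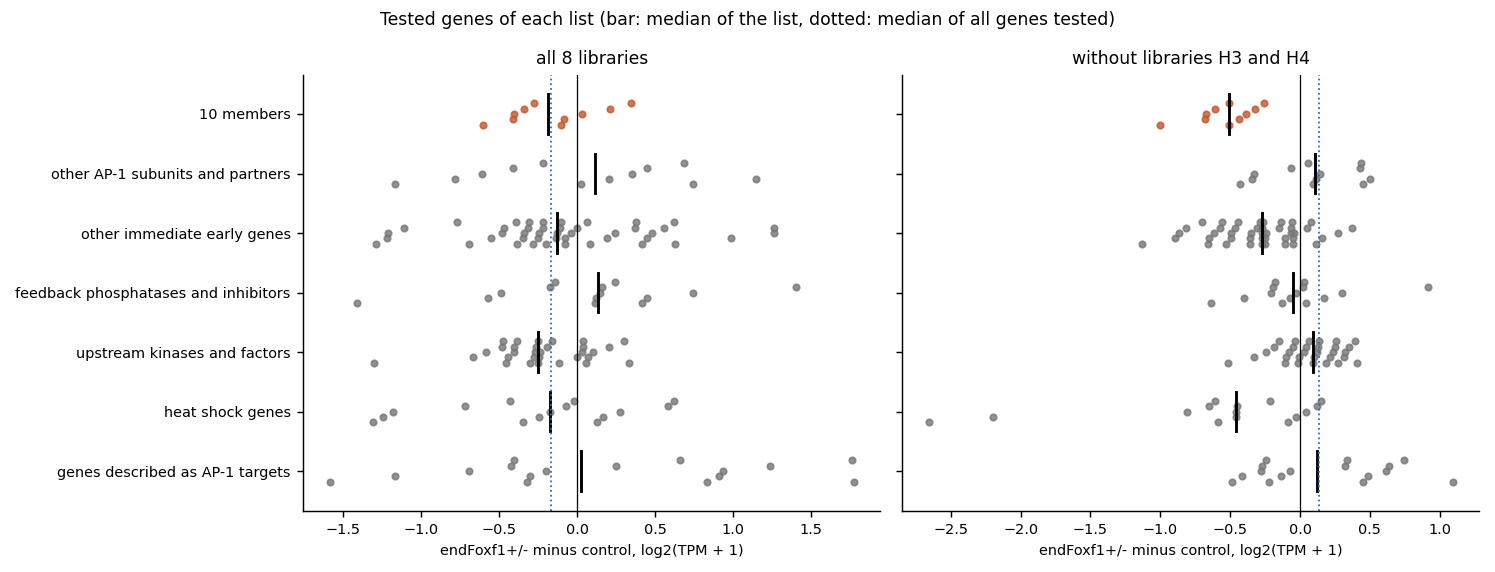
Each point is a tested gene, placed by its difference between endFoxf1+/- and control on the log2(TPM + 1) scale, for the 10 members (red) and 6 lists of related genes (grey), with all 8 libraries (left) and without H3 and H4 (right). Black bars give list medians, which without H3 and H4 are -0.51 for the members, -0.27 for other immediate early genes and -0.46 for heat shock genes, and the dotted line the median of all genes.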

How the data were processed

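RNA-seq was performed on sorted TECs of 4 control and 4 endFoxf1+/- samples, grouped by the genotype in the labels. The authors deposited 1 table of TPM per library (TPM is normalized for gene length and to a fixed total), so read depth is not known from these files and no count test was run. The authors' processing notes, as submitted, name TopHat, Cufflinks, Subread, DESeq2 and the builds GRCm38 and mm10. Which tool and annotation gave the TPM is not given in the sources used here. The count test named by the authors was replaced by limma 3.58.1 (lmFit, eBayes with an intensity trend, R 4.3.3) on log2(TPM + 1) over the 14964 genes with at least 1 TPM in at least 4 libraries, two-sided, with Benjamini-Hochberg adjustment over all of them. Fold changes are on the log2(TPM + 1) scale and understate the change of low genes.

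Single genes were also compared by exact two-sided permutation of library labels, and pairs of genes by Spearman rho and Pearson r with exact two-sided permutation over all pairings. The limma script was tested on simulated data. No 2 libraries were identical, and no label pairs the libraries. Alternatives covered pseudocount, filter, scaling, weights and left-out libraries. The scalings of the 6 libraries without H3 and H4 were added after seeing the data. Named genes were the members, Foxf1, Pecam1 and Ptprc, in each list of related genes up to 4 with the smallest p and up to 2 with the highest control TPM, and the 10 genes most alike to the members. Gm20594 and the cell type markers Lum, Rgs5, Dcn, Postn, Fcgr3, Csf1r, Alas2, Pf4, Ppbp, Itga2b and Gp9 were named outside this rule. Maff counts in 2 lists. The members and lists, and the choice to leave out H3 and H4, were made with earlier results of these data known. Promoter sequences came from RefSeq (GRCm38.p6, used for 8 of 10 members).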

Additional observations from a re-analysis of the deposited data

Results flagged for a closer look

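A library was singled out where its distance to the nearest of its group, divided by the range of the group on the log2(TPM + 1) scale, was above Dixon's 95% critical value for 4 samples. Chance alone gives about 1 such case in 20 groups. Of 92 groups looked at, 11 were singled out, 7 of them through H3. Among the members there were 3 in 20 groups. Jun in H3 (236 TPM) lay below the other endFoxf1+/- libraries, whose lowest was 405 TPM. Junb in C4 (71.8 TPM) lay below the other controls, whose lowest was 112 TPM, and Dusp1 in C1 (296 TPM) below the other controls at 411 TPM or more.

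The other 6 cases in H3 were Pecam1, the endothelial marker of the sort (77.5 TPM against at least 914 in H1, H2 and H4), Fosl1 (76.8 against at most 13.1), Cebpd (7.22 against at least 33.5), Dusp6 (57.45 against at least 127), Spp1 (1414 against at most 203) and Icam1, an adhesion molecule (19.55 against at least 144). Among the controls, Atf2 in C3 was at 53.45 TPM against at least 59.2 in the others, and Rps6ka1 in C2 at 69.5 TPM against at most 54.85.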

How the results depend on the processing

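Of the changes tried, pseudocount, the low-value filter and the trend of the limma fit left every member's direction as reported. The filter and the trend do not enter the log2 difference, so of these only the pseudocount could have changed a direction. A minimum of 5 TPM gave 519 genes at an unadjusted p under 0.05 instead of 836, with fewer genes tested (10904). Quantile normalization turned Egr1 to 0.069 and Ier2 to 0.101 on the log2 scale. Median-ratio scaling turned them to 0.094 and 0.117 and left 0 members at an unadjusted p under 0.05. Relative to the endothelial markers, 0 members, 5 genes of the related lists (15 as reported) and 380 of all genes were at an unadjusted p under 0.05, and 1 gene had an adjusted p under 0.05. The median of the members was then 1.02, the median rho of their pairs 0.86, and Jun stood at 0.61, Junb at 0.81, Jund at 0.94, Egr1 at 1.10, Atf3 at 0.87, Ier2 at 1.13 and Dusp1 at 0.80. By construction this scaling raises H3 and H4. Array weights gave 6 members, 33 genes of the related lists and 2866 of all genes at an unadjusted p under 0.05, 148 genes with an adjusted p under 0.05, a median of -0.47, and turned Fos to -0.47, Fosb to -0.75 and Nr4a1 to -0.44. Without H3 and H4 there were 5 members and 1813 genes at an unadjusted p, 3 genes with an adjusted p under 0.05, a median of -0.51, and Fos stood at -0.51, Fosb at -0.68 and Nr4a1 at -0.39.

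Leaving out 1 library at a time gave 0 to 2 members, 5 to 17 genes of the related lists and 426 to 1616 of all genes at an unadjusted p under 0.05, and 0 to 1 gene with an adjusted p under 0.05. The median of the members ran from -0.45 (without H4) to -0.049 (without H2). Fosb ran from -0.29 to 0.65, Egr1 from -0.47 to 0.19, Ier2 from -0.33 to 0.080 and Nr4a1 from -0.24 to 0.27. Fos ran from 0.06 (without H3) to 0.69 (without H1), Atf3 from -0.59 (without H4) to -0.08 (without H2), Jund from -0.51 (without H4) to -0.14 (without H2), Junb from -0.57 (without C4) to -0.28 (without H3), Dusp1 from -0.55 (without H1) to -0.30 (without H3) and Jun from -0.69 (without H4) to -0.40 (without H3). Jun was negative in 17 of 18 alternatives, of which those of the filter and the trend could not change its direction. The shift under the scaling relative to endothelial markers follows from its construction, and the cause of the other changes was not tested. No paired analysis was possible because the labels give no number that pairs a control with an endFoxf1+/- library. Read depth is unknown, so the precision of low TPM values could not be given, and 4 libraries a group, 2 of them apart from the rest, limit every comparison.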
